A study of Mus musculus with 8 samples.

Results

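The expression of 36 genes of the bone morphogenetic protein (BMP) pathway was examined in the mouse cortex at P3 (postnatal day 3) after deletion of the chromatin remodelling subunits BAF155 and BAF170. The genes were taken by symbol, and they comprise 8 BMP ligands, 6 receptors, 6 SMAD proteins, 7 Id and Msx target genes and 9 extracellular antagonists and modulators. All 36 were found among the 48709 genes that were counted, and 35 of them passed the filter on low counts. Msx2 did not pass it. Of the 35 genes tested, 4 were higher and 11 were lower in the mutant cortex, beside 18.6% and 18.9% of all genes tested, and the Id and Msx genes among them moved in both directions. Msx3 was 23.0-fold lower in the mutant cortex and Msx1 was higher. Id2 was lower, whereas Id3 and Id4 were higher. The groups overlapped for Msx1 and Id3, and their calls were lost under 9 and 6 of 20 alternative analyses.

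Cortices of 4 control and 4 dcKO_hGFAP-Cre mice, all of the C57BL/6J background, were examined by RNA sequencing. The mutants carried BAF155 fl/fl and BAF170 fl/fl together with hGFAP-Cre pos/+. According to the methods the controls carried BAF155 fl/+, BAF170 fl/+ and hGFAP-Cre, while the sample labels call them wild types. The controls thus may share the Cre transgene and lack 1 functional copy of each gene in the recombined cells. In the hGFAP-Cre line, a human GFAP promoter drives Cre recombinase in the radial glia of the dorsal telencephalon from embryonic stages on, so cells of other origin in the same tissue, such as vessels, meninges and interneurons, are not the target of the deletion. The labels name the tissue as cortex and the methods as dorsal telencephalon.

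BMPs are secreted ligands of the TGF-beta superfamily. They bind pairs of type I and type II receptors, which phosphorylate the receptor-regulated SMAD proteins. These enter the nucleus with SMAD4 and raise the transcription of targets such as the Id genes, whose products bind basic helix-loop-helix factors and keep them from DNA, and the Msx genes, which encode homeodomain repressors. Secreted antagonists hold the ligands away from their receptors. In the developing telencephalon BMPs are produced at the dorsal midline, the source of the choroid plexus and the cortical hem, and by the meninges, and they are known for patterning the dorsal midline, for driving astrocyte formation and for opposing the formation of oligodendrocyte precursors.

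The total count per library was 21126713 to 31805395 in control and 22002784 to 32110285 in dcKO_hGFAP-Cre samples. A count of 3 in these libraries corresponds to 0.0934 to 0.142 CPM (counts scaled to a common library total) and marks the level near which counting error is largest. Smarcc1, which encodes BAF155, ranged from 144 to 170 CPM in the controls and from 73.6 to 86.9 CPM in mutant libraries, and Smarcc2, which encodes BAF170, from 469 to 500 CPM and from 256 to 319 CPM. Both were thus lower in every mutant, with log2 fold changes of -0.97 and -0.77 over the whole gene, exons outside the deleted part included. Among the markers of cortical projection neurons, 8 of 10 were lower in the mutant, the rest did not pass the test, and their summed level was 2083 to 2237 CPM in the controls and 1159 to 1319 CPM in dcKO_hGFAP-Cre cortex. Neurod6, the neuronal transcription factor that was taken as their defining marker, was present in every library and lower in the mutant (log2 fold change -2.04, SE 0.13, adjusted p = 1.37e-06, edgeR). Markers of striatal neurons were summed at 122 to 175 CPM in the controls and 364 to 703 CPM in mutant cortex, with 5 of 8 higher. Those of midbrain and thalamus were summed at 53.4 to 62.9 CPM and 65.3 to 99.3 CPM, with 5 of 6 higher. Their part in the results was not tested. Since whole tissue was sequenced, fewer cells of a type and less RNA per cell cannot be told apart in any of the values that follow.

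Short stretches of sequence before the transcription start are shown for 5 of the genes on which the results turn, namely the Msx pair that moved in opposite directions, the ligand that was higher, the Id gene with the smaller p of the 2 that were higher, and the ligand that fell furthest. The sequences come from RefSeq promoter windows on GRCm38.p6, the build that mm10 names. Such windows were found for 25 of the 36 genes, and for 11 of the 15 that passed the test. The 250 bases before the start were searched on both strands for GGCGCC, a motif known from BMP-responsive SMADs, for CAGAC, the SMAD box, whose reverse complement is GTCTG, and for TATAAA, the TATA box, whose reverse complement is TTTATA. Capitals mark the matches, all sequences run 5′ to 3′ on the strand of the gene, and bases of annotated exons were left out of the printed stretches. The first belongs to Msx3 (chr7:140049090-140049338, minus strand), with CAGAC at position -225 and TTTATA at position -28 as counted from the start. The second belongs to Msx1 (chr5:37824586-37824835, minus strand) and holds no match. The others belong to Id4 (chr13:48260866-48261115, plus strand), with GGCGCC at -148, to Bmp5 (chr9:75775115-75775363, plus strand), with GTCTG at -134, and to Gdf10 (chr14:33923337-33923586, plus strand), with CAGAC at -98. The RefSeq start of Id4 lies before the start that GENCODE gives for this gene.
Msx3: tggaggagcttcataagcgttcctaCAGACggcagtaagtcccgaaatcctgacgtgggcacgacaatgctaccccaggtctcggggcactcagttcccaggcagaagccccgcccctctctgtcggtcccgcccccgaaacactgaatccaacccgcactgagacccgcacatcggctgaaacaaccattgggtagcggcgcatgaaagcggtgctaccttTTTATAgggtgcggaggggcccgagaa
Msx1: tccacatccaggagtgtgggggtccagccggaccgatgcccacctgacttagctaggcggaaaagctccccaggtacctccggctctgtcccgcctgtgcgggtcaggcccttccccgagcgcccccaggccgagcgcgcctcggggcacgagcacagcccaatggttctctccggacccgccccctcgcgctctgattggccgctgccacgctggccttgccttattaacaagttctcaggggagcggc
Id4: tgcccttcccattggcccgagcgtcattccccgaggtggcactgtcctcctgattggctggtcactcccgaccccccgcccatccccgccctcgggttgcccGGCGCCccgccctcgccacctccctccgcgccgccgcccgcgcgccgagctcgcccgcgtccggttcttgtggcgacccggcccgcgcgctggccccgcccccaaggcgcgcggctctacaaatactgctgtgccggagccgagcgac
Bmp5: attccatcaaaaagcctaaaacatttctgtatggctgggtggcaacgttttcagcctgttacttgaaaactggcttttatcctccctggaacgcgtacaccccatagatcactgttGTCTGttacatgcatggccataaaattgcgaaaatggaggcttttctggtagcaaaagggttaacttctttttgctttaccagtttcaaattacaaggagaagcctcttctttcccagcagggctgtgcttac
Gdf10: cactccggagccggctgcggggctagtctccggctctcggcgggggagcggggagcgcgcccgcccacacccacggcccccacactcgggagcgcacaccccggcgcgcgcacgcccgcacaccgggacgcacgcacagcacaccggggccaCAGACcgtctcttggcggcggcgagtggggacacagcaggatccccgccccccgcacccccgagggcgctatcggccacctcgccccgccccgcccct

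Over all 32851 RefSeq windows of the same length, 9.59% held GGCGCC, 42.2% held CAGAC and 12.4% held TATAAA. Among the genes that were higher in the mutant, GGCGCC was found in 1 of 4 windows, CAGAC in 2 and TATAAA in 0. Among those that were lower, it was 3 of 7 for GGCGCC, 4 of 7 for CAGAC and 3 of 7 for TATAAA. Annotated exons were not left out of these counts. The windows of Bmpr2, Acvr1 and Id3 lay in annotated exons over all 250 bases. Those of Bmpr1b and Id2 lay inside the annotated gene, that of Id2 with 161 exonic bases. Among the lower genes, GGCGCC was found in the windows of Bmpr2, Id2 and Rgmb, of which only that of Rgmb lay outside the annotated gene. With so few windows these counts are a description only, and a match is neither a binding site nor a cause. The Gdf10 and Id4 stretches were rich in G and C (78.8% and 75.6%), Msx1 and Msx3 were at 68.0% and 60.0%, and Bmp5 at 42.8% was the poorest of the 5, beside a median of 52.4% over all windows.

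The levels of the 36 genes were first compared per length, in CPM per kb of the longest annotated transcript. In control cortex Id2 stood highest, at 121 ± 7.21 CPM per kb (SD, n = 4), followed by Rgma at 88.1 ± 10.6. The next genes, Id3 (28.98 ± 4.41) and the type II receptor gene Acvr2a (27.4 ± 3.98), did not differ beyond their spread. Smad4, Smad1 and Acvr1 came after them with 21.4 ± 0.357, 18.2 ± 1.03 and 18.1 ± 0.588 CPM per kb, of which the last 2 were within each other's spread. The ligands were found far lower, between 0.185 ± 0.0906 for Bmp5 and 6.12 ± 0.531 for Gdf11 among the 8 of them. Msx3 (1.46 ± 0.342) was the most abundant Msx gene per length in control cortex, above Msx1 (0.818 ± 0.278) and Msx2, which was the lowest of all 36 (0.0868 ± 0.0538). In dcKO_hGFAP-Cre cortex this order of the Msx genes was turned, with Msx1 at 2.65 ± 1.62, Msx2 at 0.178 ± 0.109 and Msx3 at 0.0599 ± 0.0408 CPM per kb, the last 2 with overlapping values. Id2 (77.0 ± 13.1) remained the highest in the mutant as well, and Id3 (49.5 ± 15.7) and Rgma (41.5 ± 5.80) came next, within each other's spread.

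**Figure D1:**
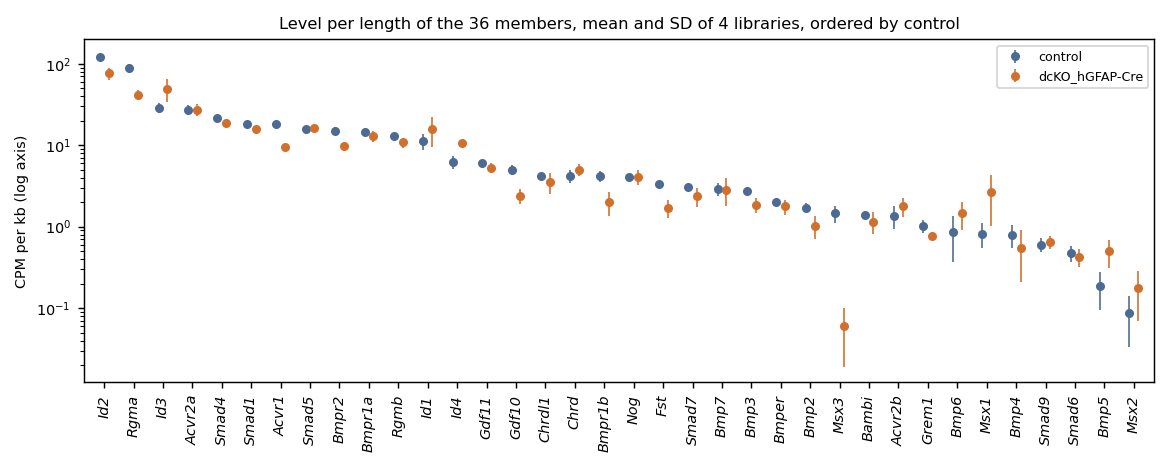
Level of each of the 36 genes per length, in CPM per kb of the longest transcript on a log axis, as mean and SD of 4 control (blue) and 4 dcKO_hGFAP-Cre (orange) libraries, ordered by the control mean. Id2 leads at 121 CPM per kb in control cortex, and the widest gap between the groups is that of Msx3, at 1.46 in control and 0.0599 CPM per kb in mutant cortex.

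Differences between the groups were tested with edgeR's quasi-likelihood F test, fitted across all 16525 genes that passed the filter, with Benjamini-Hochberg adjustment over all of them and a threshold of 0.05. Of the 35 pathway genes tested, 4 (11.4%) were higher and 11 (31.4%) were lower in dcKO_hGFAP-Cre cortex, beside 18.6% of all genes that were higher and 18.9% that were lower. In either direction it was 42.9% of the pathway genes and 37.5% of all genes. The median log2 fold change of the 35 was -0.20, against 0.02 for all genes tested. A fold change of 0.58 or more on the log2 scale in either direction, along with the adjusted p, was reached by 13 of the 35, and by 17.9% of all genes. In 13 of the 35 the groups did not overlap, with all 4 mutant libraries above all 4 controls for 2 and below them for 11. Over all genes this held for 34.4%, with 16.7% above and 17.7% below. By role, the calls were 1 higher and 3 lower of 8 ligands, 0 higher and 3 lower of 6 receptors, none of 6 SMAD genes, 3 higher and 2 lower of the 6 Id and Msx genes tested, and 0 higher and 3 lower of 9 antagonists and modulators. The count on the higher side fell to 2 without control replicate 2 and to 2 without control replicate 4, while with single libraries left out the lower side ranged from 10 to 13. Every lane held both groups. Lanes 6 and 7 held 1 library of each group, too few for a test within the lane, and a fit with lane as a block gave 5 higher and 11 lower pathway genes.

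**Figure D2:**
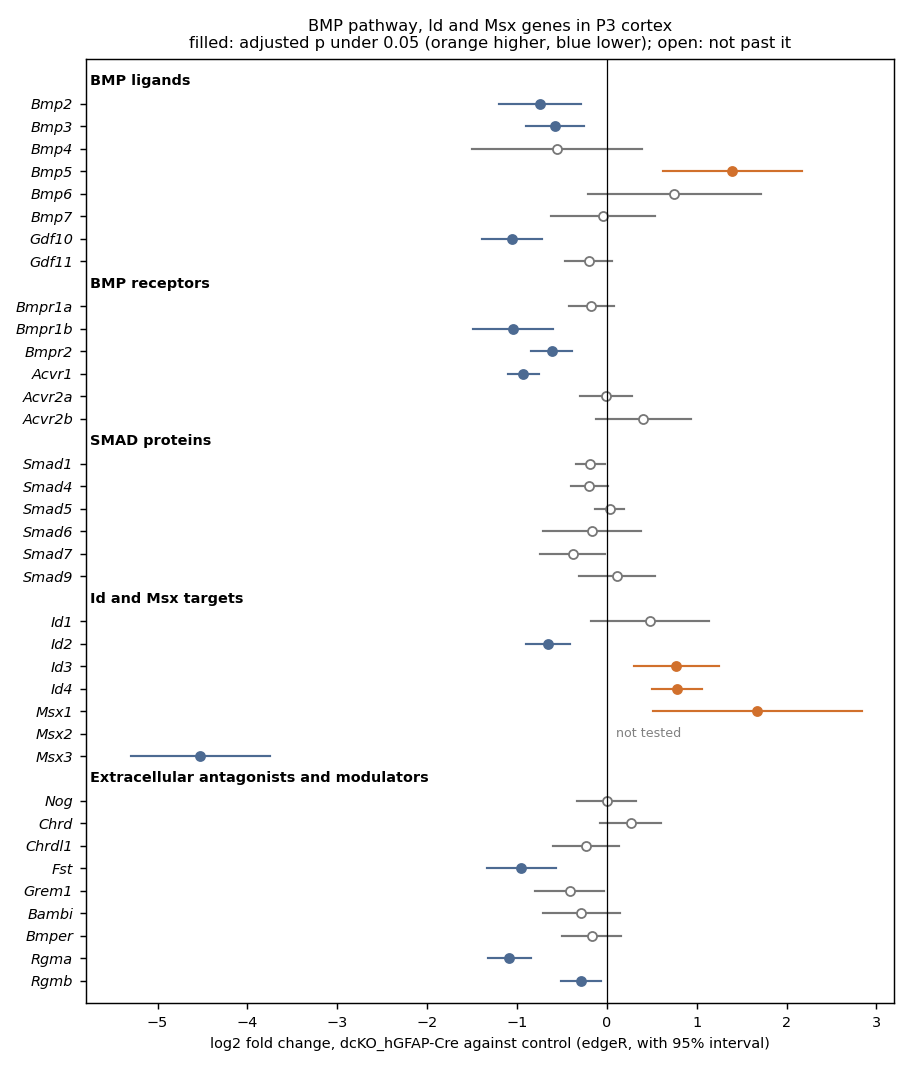
Log2 fold change of each gene, dcKO_hGFAP-Cre against control, with its 95% interval from edgeR, arranged by role. Filled points passed an adjusted p of 0.05 (orange higher, blue lower) and open ones did not, and the Id and Msx group holds points on both sides, from -4.52 for Msx3 to 1.67 for Msx1.

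The Msx genes moved furthest. Msx3 (ENSMUSG00000025469, chr7:140046157-140049089), a homeobox gene known from the dorsal neural tube, was counted 71, 62, 85 and 133 times in control replicates 1 to 4 and 3, 1, 8 and 4 times in dcKO_hGFAP-Cre replicates 1 to 4. This corresponds to 3.27, 3.06, 2.82 and 4.62 CPM in the controls and 0.128, 0.0424, 0.273 and 0.121 CPM in mutant cortex. Every mutant library was far below every control, and 2 of the 4 were at or below 3 counts. The log2 fold change was -4.52 (SE 0.36, 95% interval -5.30 to -3.75, adjusted p = 3.22e-06), which is 23.0-fold lower, and the exact permutation test of the CPM gave p = 0.0286, the smallest that 4 samples against 4 allow. By its p it was number 79 of the 16525 genes, and it kept its call under each of the 19 alternatives that gave a value for it.

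Msx1 (ENSMUSG00000048450, chr5:37820485-37824583), which encodes a homeodomain repressor of the dorsal midline, was at 1.75, 1.28, 2.26 and 1.04 CPM in the controls. In the mutants it was at 8.76, 6.27, 4.06 and 1.39 CPM. The mutant values spread over more than the whole control range, replicates 1 to 3 lay above every control, and replicate 4 lay inside it. In edgeR the log2 fold change was 1.67 (SE 0.51, 95% interval 0.51 to 2.83, adjusted p = 0.0307), a 3.19-fold rise, with an exact permutation p of 0.0857 for the CPM. The summed level of 10 choroid plexus markers was 39.6 to 50.0 CPM in the controls and 679, 1243, 57.0 and 34.8 CPM in mutant replicates 1 to 4, thus highest in the libraries with most Msx1. Of the 9 that were tested 3 were higher, and none was at 0 in any library. The defining marker Ttr, which encodes transthyretin, reached 584 and 1128 CPM in mutant replicates 1 and 2 and no more than 15.8 CPM elsewhere. Otx2, the marker with the smallest p (adjusted p = 0.000317, edgeR), was above every control in all mutants. It was at 8.55, 13.6, 3.07 and 3.95 CPM in mutant replicates 1 to 4 and at most at 0.276 CPM in the controls. Most of the control sum came from Enpp2, at 31.9 to 36.7 CPM. Without mutant replicates 1 and 2 the log2 fold change of Msx1 was 0.76 and the call was lost (adjusted p = 0.239). It was also lost when control replicate 1 (1.71, adjusted p = 0.0622), control replicate 2 (1.59, 0.0741), control replicate 4 (1.503, 0.0856), mutant replicate 1 (1.27, 0.0582) or mutant replicate 2 (1.54, 0.0697) was left out alone, without the 3 libraries with most fibroblast markers (1.47, 0.101), without the filter on low counts (1.66, 0.118) and with limma-voom (1.37, 0.134). With libraries left out a call rests on fewer mice, and the part of choroid plexus cells in the level of Msx1 was not tested. Msx2, the homologue that was not tested, was counted 1, 4, 11 and 7 times in control and 8, 11, 23 and 5 times in mutant libraries, and the groups overlapped.

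The Id genes, which are used as readouts of BMP signalling in many tissues, split in direction. Id2 (ENSMUSG00000020644, chr12:25093799-25097140), the most abundant of them, was at 255, 232, 222 and 245 CPM in the controls and 141, 177, 168 and 121 CPM in mutant replicates 1 to 4. All mutant libraries were below all controls. It fell by 0.65 on the log2 scale (log2 fold change -0.65, SE 0.11, adjusted p = 0.000763), with an exact permutation p of 0.0286. Id4 (ENSMUSG00000021379, chr13:48261228-48266026), a member that is known from neural stem cells, was at 25.3, 28.6, 23.1 and 18.2 CPM in the controls and at 42.5, 40.4, 43.9 and 36.2 CPM in mutant libraries. Here all mutants were above all controls and close to each other. With edgeR this gave a log2 fold change of 0.78 (SE 0.13, 95% interval 0.50 to 1.06, adjusted p = 0.00061), a 1.72-fold rise, again with an exact p of 0.0286. An antisense gene, A330033J07Rik, overlaps exons of Id4 and was counted at 0.567 CPM in the controls and 0.982 CPM in mutant cortex, and since the strand setting is not given in the sources used here, reads of the pair cannot be told apart.

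Id3 (ENSMUSG00000007872, chr4:136143497-136145755) was at 45.3, 34.4, 35.8 and 32.7 CPM in the controls and at 52.7, 69.3, 88.5 and 42.7 CPM in mutant replicates 1 to 4. Mutant replicate 4 fell between the controls and the other 3 mutants lay above them. The log2 fold change was 0.77 (SE 0.21, 95% interval 0.30 to 1.25, adjusted p = 0.017), and the exact permutation test gave p = 0.0571. The call was lost without control replicate 2 (0.74, adjusted p = 0.052), control replicate 3 (0.76, 0.0501) or control replicate 4 (0.71, 0.0576). It was also lost without the 2 mutant libraries with most choroid plexus markers (0.82, adjusted p = 0.0664), without the 3 libraries with most fibroblast markers (0.57, 0.0732) and without the filter on low counts (0.77, 0.0872). Id1 was at 17.3, 10.7, 13.2 and 11.04 CPM in the controls and at 15.7, 20.7, 26.7 and 9.63 CPM in mutant libraries, with its highest and lowest values both in mutants. It did not pass the test (log2 fold change 0.48, 95% interval -0.18 to 1.13, adjusted p = 0.225). Without mutant replicate 4 the value was 0.71 and passed it (adjusted p = 0.0235). Mutant replicate 3, which had most Id1 and Id3, also had the highest sum of 10 astrocyte and radial glia markers, at 2653 CPM beside 1671 to 1740 CPM in the controls and 1092 to 1470 CPM in the other mutants. Gfap, an intermediate filament of astrocytes, was at 273 CPM in that library. In the controls it was at 79.3 to 89.5 CPM and in the other mutants at 24.2 to 32.2 CPM. Aldh1l1, the defining marker of the list, was at 97.3 CPM in that library. In the controls it was at 81.3 to 96.4 CPM and in the other mutants at 34.1 to 42.3 CPM. Hopx alone of the 10 markers passed the test, with a higher level (log2 fold change 1.23, adjusted p = 0.000263, edgeR). It was at 16.5, 22.1, 20.5 and 12.0 CPM in mutant replicates 1 to 4 and at 6.40 to 8.33 CPM in the controls. Hopx was thus above all controls in every mutant and did not follow Gfap or Aldh1l1. The part of these markers in the levels of Id1 and Id3 was not tested.

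**Figure D3:**
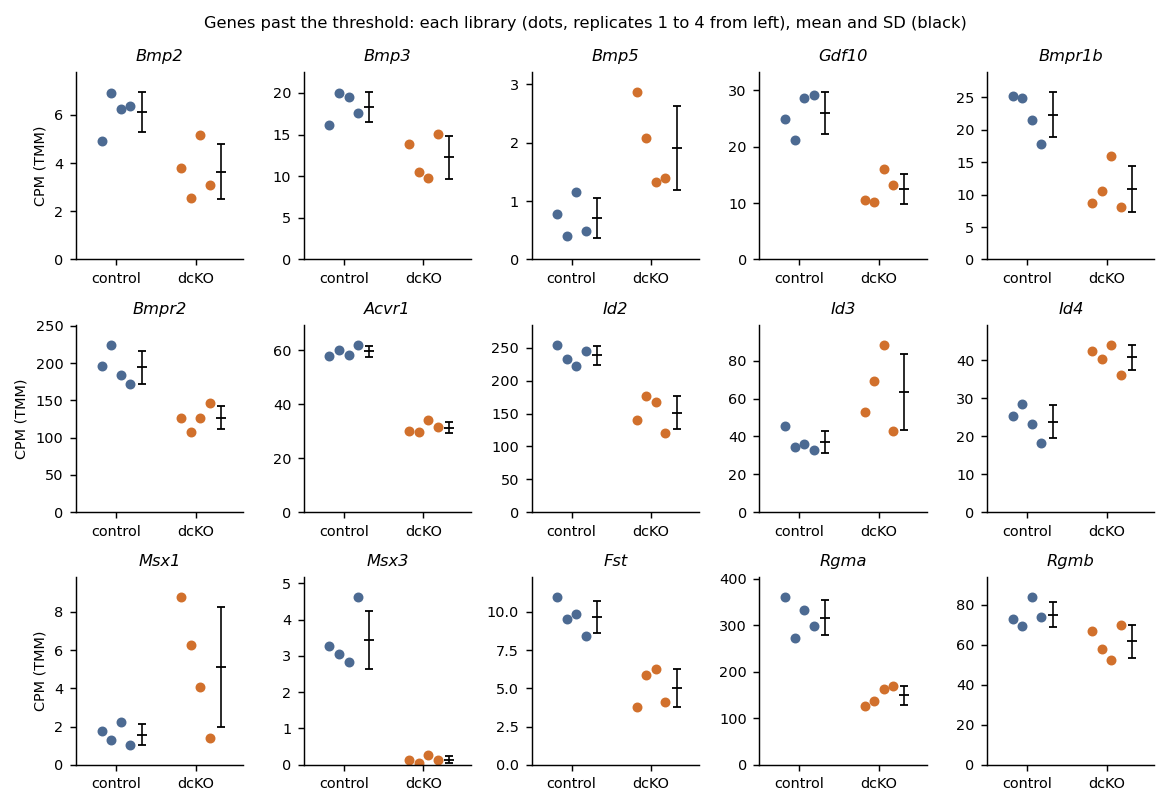
CPM of the 15 genes that passed the test in each library (dots, replicates 1 to 4 from left, blue control and orange dcKO_hGFAP-Cre), with mean and SD in black on axes that start at 0. Acvr1, Rgma and Msx3 show tight groups that lie apart, whereas for Msx1 the mutant libraries run from 1.39 to 8.76 CPM.

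The ligand genes were mostly lower or did not pass the test. Gdf10 (ENSMUSG00000021943, chr14:33923587-33937983), also known as Bmp3b, was at 24.9, 21.2, 28.6 and 29.2 CPM in the controls and 10.6, 10.2, 16.0 and 13.2 CPM in mutant cortex. The groups did not overlap. Gdf10 had a log2 fold change of -1.06 (SE 0.15, 95% interval -1.39 to -0.72, adjusted p = 0.000286), a 2.08-fold fall. Bmp3 (ENSMUSG00000029335, chr5:98854415-98884396), its closest relative and an inhibitory ligand, was at 16.1 to 20.0 CPM in the controls and 9.72 to 15.0 CPM in mutant libraries, which did not overlap either (log2 fold change -0.577, SE 0.15, adjusted p = 0.00888). Bmp2 (ENSMUSG00000027358, chr2:133552159-133562885), a classical activating ligand, was at 4.92, 6.90, 6.24 and 6.35 CPM in the controls and 3.80, 2.54, 5.15 and 3.08 CPM in mutant replicates 1 to 4. Mutant replicate 3 lay above control replicate 1 and the remaining mutants lay below all controls. The log2 fold change of Bmp2 was -0.74 (SE 0.21, adjusted p = 0.0156), with an exact permutation p of 0.0571. Without mutant replicates 1 and 2 together, it was -0.57 for Bmp2 (adjusted p = 0.125) and -0.56 for Bmp3 (adjusted p = 0.0681), and both calls were lost. That of Bmp3 was also lost without the 3 libraries with most fibroblast markers (-0.48, adjusted p = 0.0961).

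Bmp5 (ENSMUSG00000032179, chr9:75775364-75900310) was the ligand gene that was higher in the mutant. It was at 0.782, 0.394, 1.16 and 0.486 CPM in the controls and 2.86, 2.08, 1.33 and 1.39 CPM in mutant libraries. All mutants were above all controls, mutant replicates 1 and 2 by the widest margin. Its log2 fold change was 1.39 (SE 0.36, 95% interval 0.62 to 2.17, adjusted p = 0.00906), a 2.63-fold rise, with an exact p of 0.0286. Mutant replicates 1 and 2 are the libraries with most choroid plexus markers, and without them the log2 fold change was 0.92 and the call was lost (adjusted p = 0.139). That fit rests on fewer mutants, and the part of choroid plexus cells in the level of Bmp5 was not tested.

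Bmp6, of the same subfamily as Bmp5, was at 3.91, 1.63, 5.18 and 1.597 CPM in the controls and 7.01, 4.58, 6.58 and 2.75 CPM in mutant libraries. The groups overlapped and the log2 fold change was 0.75 (95% interval -0.21 to 1.71, adjusted p = 0.195). The summed level of 10 meningeal fibroblast markers was 80.4, 52.3, 161 and 56.5 CPM in control replicates 1 to 4 and 258, 83.7, 202 and 22.0 CPM in the mutant ones. None of these markers passed the test (edgeR, 0 of 10 also at an unadjusted p under 0.05) and none was at 0, and the defining marker Col1a1, a collagen chain, was at 5.52 to 27.2 CPM in the controls and 3.29 to 36.6 CPM in mutant libraries. In each group the library with most of these markers was also the one with most Bmp6, and their part in the result was not tested. With the lane as a block the value of Bmp6 was 0.80 and passed the test (adjusted p = 0.0332). Exons of Bmp6 overlap those of Txndc5 on the other strand, which was counted at 69.1 CPM in the controls and 57.0 CPM in mutant cortex. Bmp4 was at 1.89, 0.937, 2.16 and 1.597 CPM in the controls and 2.01, 0.805, 1.40 and 0.362 CPM in mutant libraries, with a log2 fold change of -0.56 (95% interval -1.501 to 0.39, adjusted p = 0.331). Leaving out the 3 libraries with most of the fibroblast markers, control replicate 3 and mutant replicates 1 and 3, moved it to -1.38 (adjusted p = 0.0478). Bmp7 (-0.04, 95% interval -0.62 to 0.54) and Gdf11 (-0.20, 95% interval -0.46 to 0.06) did not pass the test.

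**Figure D4:**
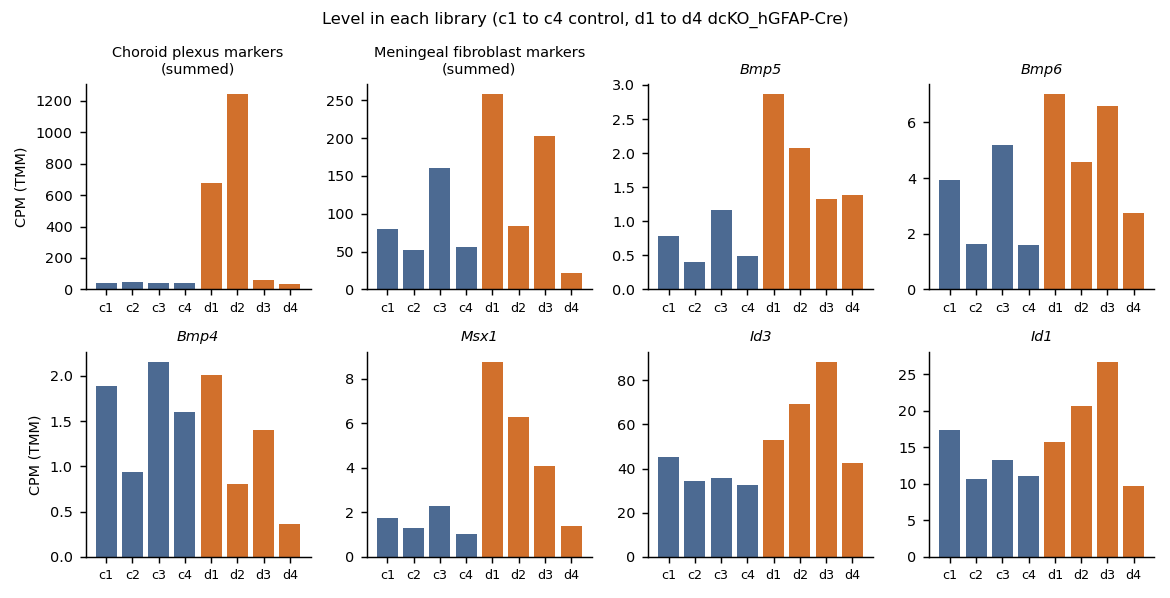
Summed CPM of choroid plexus and meningeal fibroblast markers (the leftmost panels of the upper row) and CPM of 6 pathway genes in each library, with controls as c1 to c4 in blue and dcKO_hGFAP-Cre as d1 to d4 in orange. The choroid plexus sum reaches 679 and 1243 CPM in d1 and d2, where Bmp5 and Msx1 have their highest bars. Both sums are lowest in d4, at 34.8 CPM for choroid plexus and 22.0 CPM for fibroblasts. Of the 6 genes, all but Bmp5 have their lowest mutant bars in d4.

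Among the receptors, 3 of 6 were lower in dcKO_hGFAP-Cre cortex and none was higher. Acvr1 (ENSMUSG00000026836, chr2:58388644-58567157), which encodes the type I receptor ALK2, was at 57.8, 60.2, 58.3 and 62.0 CPM in the controls and 29.97, 29.6, 34.05 and 31.5 CPM in mutant libraries. The replicates of each group lay within a few CPM of each other and the groups were far apart. Its log2 fold change of -0.93 (SE 0.08, 95% interval -1.10 to -0.76, adjusted p = 5.93e-06) had the smallest SE of the called pathway genes, and it was number 117 of all genes by its p. Bmpr1b (ENSMUSG00000052430, chr3:141837136-142169425), the type I receptor ALK6, was at 25.2, 25.0, 21.4 and 17.8 CPM in the controls and 8.72, 10.6, 15.9 and 8.06 CPM in mutant libraries. The groups did not overlap, though mutant replicate 3 came close to control replicate 4. Bmpr1b had a log2 fold change of -1.04 (SE 0.20, adjusted p = 0.00214). Bmpr2 (ENSMUSG00000067336, chr1:59763400-59879014), the type II receptor dedicated to BMPs, was at 196, 225, 185 and 173 CPM in the controls and 126, 108, 127 and 147 CPM in mutant libraries. All mutants were again below all controls, and the log2 fold change was -0.61 (SE 0.11, adjusted p = 0.000833). The exact permutation p was 0.0286 for each of the 3.

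The other receptors did not pass the test, which does not show that they were equal. Bmpr1a, which encodes the type I receptor ALK3, had a log2 fold change of -0.17 (95% interval -0.42 to 0.07, adjusted p = 0.25) and passed the test only when mutant replicate 3 was left out (-0.29, adjusted p = 0.04). The type II receptor gene Acvr2a, which activins also use, was at 127 to 182 CPM in the controls and 119 to 181 CPM in mutant cortex (-0.01, 95% interval -0.30 to 0.28). Its exons overlap those of Orc4 on the other strand, counted at 56.0 and 66.5 CPM. Acvr2b had a value of 0.41 (95% interval -0.12 to 0.93).

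None of the 6 SMAD genes passed edgeR's test, while 2 had an unadjusted p under 0.05, and DESeq2 called 1 and limma-voom 0 of them. The 95% intervals of Smad1 (log2 fold change -0.19, 95% interval -0.35 to -0.03, adjusted p = 0.0655) and Smad7 (-0.38, 95% interval -0.74 to -0.02, adjusted p = 0.0906) did not include 0. Smad1, a receptor-regulated SMAD of the BMP branch, was at 64.2 to 72.9 CPM in the controls and 58.5 to 61.7 CPM in mutant libraries, without overlap. DESeq2 called it lower (-0.20, adjusted p = 0.0286), as did edgeR without control replicate 1 (-0.22, adjusted p = 0.0382). Smad4, the common partner, was also below control in every mutant, at 71.3 to 74.0 CPM and 51.8 to 69.6 CPM (-0.20, 95% interval -0.40 to 0.01, adjusted p = 0.119). Smad7, an inhibitory SMAD that BMP and TGF-beta signals induce, was at 11.4 to 14.4 CPM in the controls and 8.01 to 13.5 CPM in mutant cortex, with replicate 3 the highest of the mutants, and without that library its value was -0.56 (adjusted p = 0.0094). Smad5 (0.03, 95% interval -0.13 to 0.20), Smad9 (0.11, -0.32 to 0.53) and the inhibitory Smad6 (-0.16, -0.71 to 0.38) had intervals on both sides of 0.

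Of the 9 antagonists and modulators, 3 were lower. Rgma (ENSMUSG00000070509, chr7:73375509-73419899), a membrane-anchored BMP co-receptor and axon guidance ligand of neogenin, was at 360, 273, 332 and 299 CPM in the controls and 126, 137, 162 and 170 CPM in mutant libraries. Every mutant library was far below every control. Rgma had a log2 fold change of -1.08 (SE 0.11, 95% interval -1.33 to -0.84, adjusted p = 2.31e-05), a 2.12-fold fall, and the antisense gene A730056A06Rik that overlaps it was counted at 6.51 CPM in the controls and 4.29 CPM in mutant cortex. Fst (ENSMUSG00000021765, chr13:114452290-114458951), which encodes follistatin, an antagonist of activins and some BMPs, was at 10.95, 9.51, 9.86 and 8.40 CPM in the controls and 3.76, 5.89, 6.24 and 4.11 CPM in mutant libraries. The groups did not overlap. Fst had a log2 fold change of -0.95 (SE 0.18, adjusted p = 0.00142). Both had an exact permutation p of 0.0286 and kept their call under every alternative.

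Rgmb (ENSMUSG00000048027, chr17:15803188-15831039), the paralogue of Rgma, was at 69.5 to 83.6 CPM in the controls and 52.2 to 69.8 CPM in mutant cortex, and the ranges overlapped slightly. Its value of -0.28 (SE 0.10, adjusted p = 0.0452) lay close to the threshold. The call was lost without control replicate 1 (-0.30, adjusted p = 0.0534), 3 (-0.23, 0.141) or 4 (-0.30, 0.0682), and without mutant replicate 1 (-0.33, 0.0519), 2 (-0.26, 0.109) or 3 (-0.21, 0.0959). It was lost under 12 of 20 alternatives in all, which moved the value to -0.15 with the GC and length offset (adjusted p = 0.187), to -0.16 with library totals (0.226) and to -0.18 without the 3 libraries with most fibroblast markers (0.363).

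The classical antagonists did not pass the test. Nog, which encodes noggin, was at 6.36 to 7.47 CPM in the controls and 5.98 to 8.98 CPM in mutant libraries, with a 95% interval of the log2 fold change from -0.33 to 0.33. Chrd, which encodes chordin, was at 23.6, 16.8, 16.0 and 17.5 CPM in the controls and 23.9, 24.4, 16.3 and 24.0 CPM in mutant cortex (0.26, 95% interval -0.07 to 0.60, adjusted p = 0.201). Control replicate 1 and mutant replicate 3 each stood with the other group, and without control replicate 1 (0.40, adjusted p = 0.0499) or mutant replicate 3 (0.38, adjusted p = 0.0402) the value passed the test. Chrd shares exonic bases with Thpo on the other strand. Chrdl1, an astrocyte-secreted relative of chordin, was at 15.5 to 19.0 CPM in the controls and 12.0, 12.8, 21.1 and 12.5 CPM in mutant replicates 1 to 4 (-0.23, 95% interval -0.60 to 0.14, adjusted p = 0.305). Here mutant replicate 3, the library with most Gfap, was above all controls and the other mutants below, and without it the value was -0.47 (adjusted p = 0.00691). Grem1, a gremlin, had a value of -0.41 (95% interval -0.80 to -0.03, adjusted p = 0.0828) and passed without control replicate 1 (-0.54, adjusted p = 0.0257). Bambi, a decoy receptor without a kinase domain (-0.29, 95% interval -0.72 to 0.14), and Bmper, which binds BMPs outside the cell (-0.17, 95% interval -0.50 to 0.16), did not pass it.

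To ask whether relatives changed by different amounts, the log2 ratio of CPM within each library was compared for 13 pairs of genes with a two-sided exact permutation test. In 7 of the 13 pairs the groups did not overlap, each with an exact p of 0.0286 and an adjusted p of 0.0531 over the pairs, so none of them passed 0.05 after adjustment in a design where no smaller p can be had. The ratio of Id2 to Id3 was 2.48, 2.74, 2.62 and 2.88 in control and 1.41, 1.34, 0.92 and 1.49 in mutant libraries on the log2 scale, a difference of -1.39. That of Id2 to Id4 was 3.31, 3.001, 3.24 and 3.72 in control and 1.72, 2.11, 1.92 and 1.72 in mutant libraries, a difference of -1.45. Thus Id2 was lower relative to both in every mutant than in any control. The ratio of Id1 to Id2 was higher by 1.06 and that of Id1 to Id3 lower by 0.33 (log2 difference -0.33). The ratio of Id3 to Id4 was 0.635 ± 0.268 (SD, n = 4) in control and 0.579 ± 0.368 in mutant libraries, a difference of -0.06 that lay within the spread (exact permutation p = 0.8). Bmpr1a rose against Bmpr1b by 0.87, Rgma fell against Rgmb by 0.80 (log2 difference -0.80) and Gdf10 against Gdf11 by 0.84 (log2 difference -0.84). In the remaining pairs, which were Id1 with Id4, Acvr2a with Acvr2b, Smad6 with Smad7, Bmp4 with Bmp7 and Nog with Chrd, the groups overlapped (exact p = 0.0571 to 0.229).

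**Figure D5:**
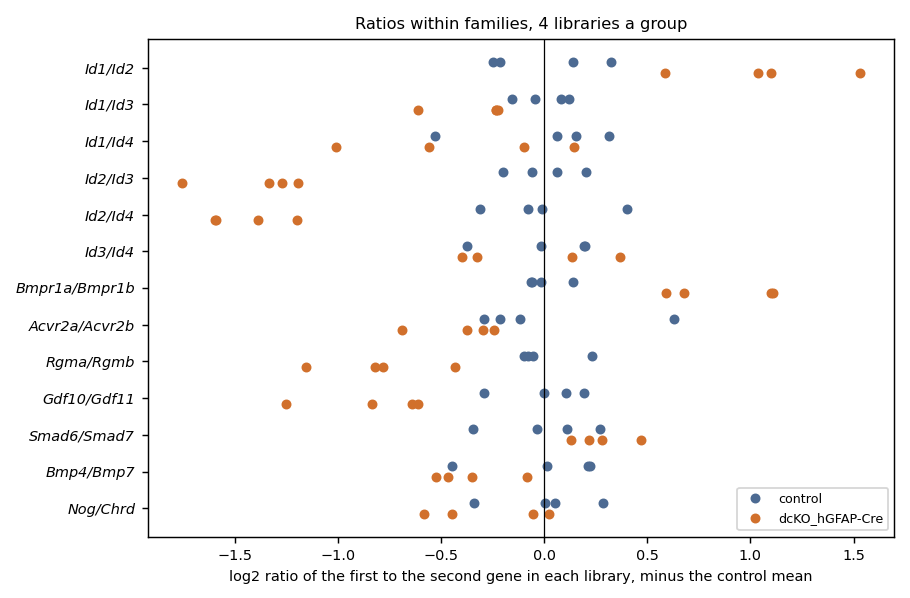
Log2 ratio of 2 related genes in each library, shown as the distance from the control mean of the pair, for 13 pairs in 4 control (blue) and 4 dcKO_hGFAP-Cre (orange) libraries. In the pairs Id2/Id3 and Id2/Id4 all mutant libraries lie left of all controls, with mean differences of -1.39 and -1.45, while the points of Id3/Id4 are mixed.

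The other genes of the BMP, activin and TGF-beta pathways formed a list of 54 genes, and 46 passed the filter. Among them, 8 (17.4%) were higher and 16 (34.8%) were lower, beside 18.6% and 18.9% of all genes, and the groups did not overlap for 22 of the 46, beside 34.4% of all genes. Scaling by library totals in place of TMM gave 13 higher and 14 lower, and an offset for GC content and length gave 12 higher and 15 lower. The 5 with the smallest p were all lower in the mutant. Tgfbr1, the type I receptor of TGF-beta, was at 111 to 121 CPM in the controls and 46.1 to 49.5 CPM in mutant libraries (log2 fold change -1.28, SE 0.07, adjusted p = 4.1e-07). Neo1, which encodes neogenin, the receptor of the proteins made by Rgma and Rgmb, was at 543 to 601 CPM and 239 to 297 CPM (-1.12, SE 0.08, adjusted p = 1.6e-06). Of the activin subunits, Inhbb was at 19.2 to 23.6 CPM in the controls and 5.76 to 7.95 CPM in mutant cortex (-1.59, SE 0.13, adjusted p = 3.32e-06), and Inhba at 8.42 to 11.8 CPM and 1.40 to 3.58 CPM (-2.14, SE 0.24, adjusted p = 4.02e-05). Fstl4, a relative of follistatin, was at 7.84 to 8.37 CPM and 1.95 to 2.99 CPM (-1.74, SE 0.16, adjusted p = 8.34e-06). Rgma and its receptor gene Neo1 were thus both lower, as were Fst and both activin subunit genes, the ligands that follistatin binds. All of these groups were without overlap.

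Markers of the other cell types that the tissue can hold were read beside these values. The endothelial list was summed at 234 to 301 CPM in the controls and 128 to 221 CPM in mutant cortex, with 6 of 10 markers lower, and its defining marker Cldn5, a tight junction protein, was at 55.8 to 79.8 CPM and 36.7 to 76.1 CPM. That of oligodendrocyte precursors was summed at 468 to 500 CPM and 267 to 347 CPM, with 7 of 8 lower, and Pdgfra, their growth factor receptor, was at 120 to 149 CPM and 91.0 to 105 CPM. The list of the cortical hem and hippocampus was summed at 105 to 139 CPM and 142 to 164 CPM, with 3 of 7 higher. Wnt3a, the defining hem gene, was at 0 in control replicate 2 and at most at 0.254 CPM in any library. The 3 that were higher did not overlap between groups. They were Lhx9 (0.972 to 2.76 CPM and 10.1 to 17.1 CPM), Wnt8b (0 to 0.276 CPM and 0.785 to 1.45 CPM) and Wnt2b (1.94 to 2.53 CPM and 3.65 to 6.19 CPM). The largest part of the sum was Zbtb20, at 59.9 to 91.9 CPM and 69.2 to 92.1 CPM, which did not pass the test. Among the striatal markers, Ppp1r1b, the signalling protein of medium spiny neurons, was at 34.2 to 49.1 CPM and 271 to 343 CPM, and of the midbrain and thalamus markers Tcf7l2, a thalamic transcription factor, was at 3.51 to 4.42 CPM and 5.30 to 6.58 CPM. The part of these cell types in the levels of the pathway genes was not tested.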

How the data were processed

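RNA sequencing of the P3 cortex of 4 control and 4 dcKO_hGFAP-Cre mice was analysed, grouped by the sample labels. The authors isolated RNA with TRIZOL, made TruSeq RNA v2 libraries, mapped the reads to mm10 and used featureCounts, and the deposited files hold raw counts per gene, without normalization. The aligner, annotation and strand setting are not given in the sources used here, so reads of overlapping genes cannot be told apart. Exons of 10 of the 36 genes overlap those of another annotated gene. The study tested its counts with DESeq2.

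Ensembl identifiers were matched to symbols in GENCODE M21, for 48349 of the 48709 genes. Counts were scaled by TMM to CPM, kept where edgeR's filterByExpr (minimum count 10) passed them, and tested with edgeR's quasi-likelihood F test with robust dispersions (edgeR 4.0.16 in R 4.3.3), with all 8 samples, no covariate and Benjamini-Hochberg adjustment over 16525 genes (threshold 0.05). Intervals are at 95%. Single genes were also tested on CPM, and pairs of genes on log2(CPM + 0.5), by two-sided exact permutation over the 70 arrangements of 4 samples against 4. Counting error limits genes near 3 counts, and P-values measure the spread between 4 mice a group. No pair of replicates agreed within sampling noise.

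The 36 genes, the other lists and the tests were chosen with earlier results of these data known. All 36 are described, with every library's value for those past the adjusted threshold and a log2 fold change of 0.58 or more in either direction, along with the 5 genes of smallest p in the other pathway list, the deleted genes and the marker named first in each cell type list. Gfap, Hopx, Otx2, Enpp2, Wnt2b, Wnt8b, Lhx9, Zbtb20 and genes overlapping the 36 were named after their values were seen. Alternatives were DESeq2 (version 1.42.0), limma-voom (limma version 3.58.1), other scalings, filters, thresholds and blocks, an offset for GC content and length, and samples left out. The script was tested on simulated data.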

Additional observations from a re-analysis of the deposited data

Results flagged for a closer look

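For each of the 36 genes and both groups, the distance of the highest or lowest library from its nearest neighbour was set against the range of the group, and 4 of 72 groups held a library past Dixon's 95% critical value, where 3.6 are expected by chance. Chrd was lowest in dcKO_hGFAP-Cre replicate 3, at 16.3 CPM, with a gap of 0.942 of the range. Chrdl1 was highest in the same library, at 21.1 CPM (gap 0.909 of the range), and so was Bmper, at 8.80 CPM (gap 0.905 of the range). Grem1 was lowest in dcKO_hGFAP-Cre replicate 4, at 2.72 CPM (gap 0.871 of the range). Thus 3 of the 4 concern dcKO_hGFAP-Cre replicate 3, the library with the highest Gfap level, of 273 CPM. Taking Xist above Ddx3y as the sign of a female, each group held 1 female among 4 libraries. In the mutants it was this replicate 3, with Xist at 1065 CPM and Ddx3y at 0.751 CPM, and Chrdl1 lies on chromosome X. The part of this library's astrocyte markers in these values was not tested. Sex was a covariate in 1 alternative fit of the contrast between the groups, and the effect of sex itself was not tested.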

How the results depend on the processing

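Of the 15 genes called, 9 kept their call under each alternative that gave a value (20 for Acvr1, Bmpr1b, Bmpr2, Fst, Gdf10, Id2, Id4 and Rgma, and 19 for Msx3, which like Bmp5 did not pass a filter of 10 counts in every sample). None of the 15 changed direction, and 31 of 298 comparisons lost the call. The genes higher numbered 4, but 2 without the filter on low counts, 2 at an adjusted p under 0.01, 1 without the mutant libraries with most choroid plexus RNA, 2 without the 3 libraries with most fibroblast RNA, and 2 to 5 with single libraries left out. In the other pathway list, the genes higher numbered 8, but 13 with library totals, 4 without the choroid plexus libraries, 5 at an adjusted p under 0.01, 5 with a log2 fold change of 0.58 or more in either direction, and 5 to 10 with single libraries left out (5 without control replicate 4 or dcKO_hGFAP-Cre replicate 1), and those lower 16, but 9 with the same fold change. The median log2 fold change of -0.20 moved to -0.076 with library totals, which moved that of all genes from 0.02 to 0.15, and to -0.34 without the fibroblast libraries. The cause was not tested. The genes without overlap between groups numbered 13, and 11 with library totals and 13 to 19 with single libraries left out, and the pairs without overlap 7, and 7 to 8. Leaving out the fibroblast libraries and taking sex as a covariate were chosen after seeing the data.

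Among genes without a call, the log2 fold change turned with library totals for Bmp7 (0.085), Acvr2a (0.11) and Nog (0.12), with at least 10 counts in every sample for Acvr2a (0.0093) and Nog (0.015), with the GC and length offset for Bmp7 (0.021) and Acvr2a (0.028), and without the fibroblast libraries for Acvr2a (0.11), Smad5 (-0.025) and Nog (0.14). With single libraries left out it ranged from -0.20 to 0.20 for Bmp7, from -0.10 to 0.099 for Acvr2a, from -0.017 to 0.075 for Smad5, from -0.32 to 0.0026 for Smad6 and from -0.15 to 0.080 for Nog.

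Whether the replicate numbers pair the samples is not known. Same-numbered libraries shared a lane, and their deviations correlated over 0.1 in 2 of 4 pairs (0.18, -0.10, 0.19 and -0.06). Control replicate 3 alone among the controls, and replicate 1 alone among the mutants, correlated best with its own number. With so few libraries this cannot decide the question. With the replicate block, 5 genes were higher, Bmp6 among them (log2 fold change 0.83, adjusted p = 0.0089), and 10 lower, without Rgmb (-0.29, adjusted p = 0.0625). The ratios had the same sign in all 4 same-numbered pairs for 10 of 13. Genes at a few counts, such as Msx2, are limited by depth.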
